A study of Homo sapiens with 6 samples.

Results

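The transcriptome of untreated HCT116 cells was described from 3 poly(A) RNA-seq libraries, NT1, NT2 and NT3, which were all of the untreated libraries among the 6 of the study and were chosen by their sample labels. All 27942 genes of the deposited table entered, and the oxaliplatin-treated libraries (OXA) were not used. HCT116 is an established human colon cancer line. According to the study's methods it has wild-type p53, wild-type APC and a mutated CTNNB1, the gene of β-catenin. The labels name no engineered allele, and these cells received no drug. They were grown to subconfluency in RPMI medium with fetal bovine serum, and RNA from each replicate was made into a stranded library. With 1 line and 1 condition, the values describe these cells and are not a model of normal colon epithelium or of colon tumours at large.

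The colon epithelium renews itself from stem cells at the crypt base, where WNT signals acting through β-catenin and TCF factors keep cells dividing. Their progeny become absorptive colonocytes or secretory goblet and enteroendocrine cells under factors such as CDX2, HNF4A and ATOH1. Cell lines from colon tumours usually retain epithelial genes and lose many markers of differentiated cells, and genes whose promoters are rich in CpG dinucleotides are often silenced by DNA methylation in such tumours.

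Levels are given as CPM, the counts of a gene for every 1000000 counts of its library. A gene counted as detected when it reached 1 CPM in each library, silent when it had at most 3 raw counts in each library, and between otherwise. The libraries held 34886781, 34019266 and 38903597 counts. In them 1 CPM stood for 34.0 to 38.9 counts and 3 counts, the limit for silent genes, for 0.0771 to 0.0882 CPM. A count of 0 does not exclude a level of about this size. Errors are SD over the 3 libraries. Neither the labels nor the methods say whether the libraries came from separate cultures, so the spread may be technical. With a single group there was nothing to test, and no p-value is given.

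One library stood apart. Over 9318 genes with at least 10 CPM on average and a known GC content, the log2 ratio of NT1 to the mean of the other libraries fell with the GC content of the transcript (Spearman -0.81, a description across genes, which are not independent replicates). When the genes were divided into 5 equal groups by GC content, its median was 0.22 in the lowest group and -0.71 in the highest. The same correlation was 0.77 for NT2 and 0.51 for NT3, each taken against a mean that holds NT1. For the log2 ratio of NT2 to NT3 alone it was 0.36. GC-rich genes therefore have low values in NT1, and a mean ± SD of such a gene holds a low NT1. The part of GC content in the levels reported below was not tested.

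**Figure D1:**
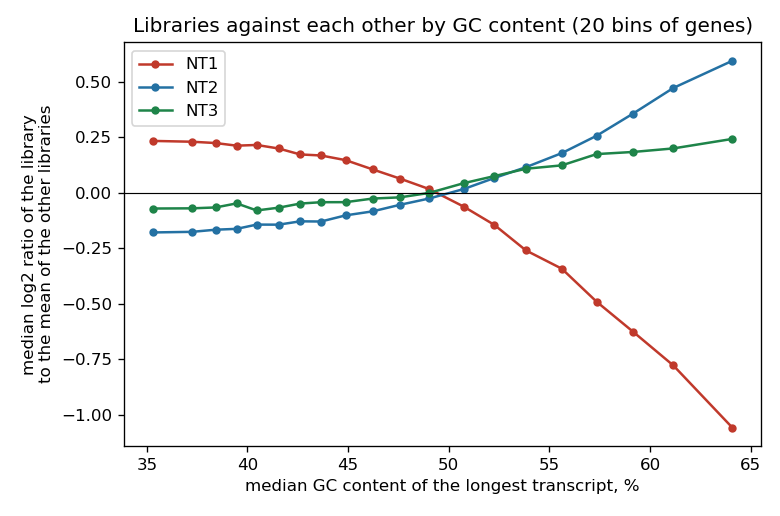
Median log2 ratio of each library to the mean of the other libraries (y axis) against the median GC content of the longest transcript in percent (x axis), for 20 bins of about 466 genes each. NT1 runs from 0.23 in the bin with the lowest GC content to -1.06 in the bin with the highest, whereas NT2 and NT3 rise to 0.59 and 0.24.

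Before the levels, 5 promoters are shown, from 250 bases before to 50 after the first start that RefSeq lists (GRCh38.p14), 5′ to 3′, with each CpG in capitals. They stand for the classes of promoter found below at different levels of expression, namely the most abundant gene (EEF1A1, a translation elongation factor), an abundant ribosomal protein gene (RPLP0), an intestinal transcription factor that was detected at a low level (CDX2), a CpG-rich promoter of a silent gene (CHFR, a mitotic checkpoint ubiquitin ligase) and a CpG-poor promoter of a silent gene of absorptive cells (FABP1, the liver fatty acid binding protein).
EEF1A1, chr6:73520983-73521282, minus strand: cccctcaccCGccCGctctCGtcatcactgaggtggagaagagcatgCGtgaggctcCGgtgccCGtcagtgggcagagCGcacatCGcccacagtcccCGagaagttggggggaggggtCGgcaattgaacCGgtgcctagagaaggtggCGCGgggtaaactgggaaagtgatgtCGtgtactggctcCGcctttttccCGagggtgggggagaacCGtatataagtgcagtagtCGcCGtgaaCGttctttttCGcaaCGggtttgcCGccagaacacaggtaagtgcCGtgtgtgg
RPLP0, chr12:120201062-120201361, minus strand: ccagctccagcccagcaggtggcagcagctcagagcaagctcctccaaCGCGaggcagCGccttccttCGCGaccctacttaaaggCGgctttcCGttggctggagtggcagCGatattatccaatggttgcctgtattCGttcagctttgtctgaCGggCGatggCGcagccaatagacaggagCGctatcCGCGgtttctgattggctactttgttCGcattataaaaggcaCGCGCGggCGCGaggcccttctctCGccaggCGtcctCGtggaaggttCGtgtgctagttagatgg
CDX2, chr13:27969266-27969565, minus strand: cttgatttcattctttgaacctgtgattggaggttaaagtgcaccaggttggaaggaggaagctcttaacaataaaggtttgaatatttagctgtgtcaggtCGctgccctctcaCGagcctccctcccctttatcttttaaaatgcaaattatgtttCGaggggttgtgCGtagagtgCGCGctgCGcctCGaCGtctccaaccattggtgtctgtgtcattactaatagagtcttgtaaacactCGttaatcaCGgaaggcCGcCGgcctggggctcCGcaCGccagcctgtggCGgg
CHFR, chr12:132887556-132887855, minus strand: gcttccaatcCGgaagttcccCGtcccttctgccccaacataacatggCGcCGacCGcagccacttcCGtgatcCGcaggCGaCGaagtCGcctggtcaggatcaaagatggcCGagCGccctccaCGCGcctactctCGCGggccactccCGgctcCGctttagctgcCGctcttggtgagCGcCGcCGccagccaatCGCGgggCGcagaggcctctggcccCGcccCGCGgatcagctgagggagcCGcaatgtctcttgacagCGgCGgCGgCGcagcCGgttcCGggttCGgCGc
FABP1, chr2:88128013-88128312, minus strand: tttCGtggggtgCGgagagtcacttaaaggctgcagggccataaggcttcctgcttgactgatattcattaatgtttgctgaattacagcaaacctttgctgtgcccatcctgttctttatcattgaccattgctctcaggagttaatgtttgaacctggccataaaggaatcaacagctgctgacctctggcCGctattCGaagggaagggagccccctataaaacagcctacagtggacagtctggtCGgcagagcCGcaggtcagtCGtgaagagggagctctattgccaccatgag
The CHFR promoter held 37 CpGs and the EEF1A1 promoter 24, yet EEF1A1 averaged 15050 CPM and CHFR had 0 counts in all 3 libraries. RPLP0 held 25 CpGs at 3217 CPM and CDX2 16 at 13.6 CPM. FABP1 held 7 and had 0 counts in each library.

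Of the 27942 genes, 12020 (43.0%) were detected, 3578 (12.8%) lay between and 12344 (44.2%) were silent, 9574 of them with 0 counts in every library. Protein-coding genes made up almost all of the RNA counted. Of 19781 such genes 11738 (59.3%) were detected and 5467 (27.6%) were silent, and together they took 99.5% of the counts. Of 7832 long noncoding RNA genes only 234 (2.99%) were detected, 6659 (85.0%) were silent and the class took 0.339% of the counts. A detected protein-coding gene had a median of 32.9 CPM and a detected long noncoding RNA gene 3.45 CPM. A mean of at least 100 CPM was reached by 2236 genes, which held 70.2% of the counts, and a mean of at least 1000 CPM by 99 genes, which held 20.8%.

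The 10 most abundant genes took 6.09% of the counts of NT1, 5.75% of NT2 and 5.69% of NT3 (mean 5.84% ± 0.213), and the 100 most abundant took 20.9% ± 0.444. The number of genes that held 50% of the counts was 780 in NT1, 846 in NT2 and 854 in NT3. EEF1A1, which delivers aminoacyl-tRNA to the ribosome, led in every library with 15716, 13592 and 15842 CPM. Next by share of counts came HSP90AB1 (6468 CPM ± 668) and HSP90AA1 (5550 ± 886), which encode the cytosolic HSP90 chaperones, with the mitochondrial cytochrome oxidase subunit MT-CO1 (6441 ± 683) between them. This order is that of the means, since MT-CO1 was above HSP90AB1 in NT2 and GAPDH above HSP90AA1 in NT2 and NT3. The chaperone HSPA8 had 4495, 3503 and 3648 CPM.

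Translation, glycolysis, the cytoskeleton and mitochondrial respiration supplied 16 of the 20 genes with the highest CPM. Translation was represented by EEF1A1, PABPC1, RPLP0, RPL4 and EEF1G, glycolysis by GAPDH, ENO1 and PKM, the cytoskeleton by ACTG1, TUBA1B and TUBB, and respiration by MT-CO1, MT-ND4, MT-CO3, MT-CO2 and MT-ATP6. The others were the chaperone genes HSP90AB1, HSP90AA1 and HSPA8 and HNRNPA1, an RNA-binding splicing regulator. Genes of this level differ in how evenly the libraries measured them. RPL4, a protein of the large ribosomal subunit, had 2663, 2679 and 2686 CPM, and TUBA1B, an α-tubulin, had 2994, 3019 and 3057 CPM. GAPDH, by contrast, had 3596 CPM in NT1 against 5577 and 5470 in NT2 and NT3, and ACTG1, the cytoplasmic γ-actin, had 3373 against 4903 and 4990. Several of these genes, EEF1A1, GAPDH, ACTG1 and the HSP90 and ribosomal protein genes among them, have many near-identical pseudogenes, and how reads shared with them were assigned is not given in the sources used here.

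**Figure D2:**
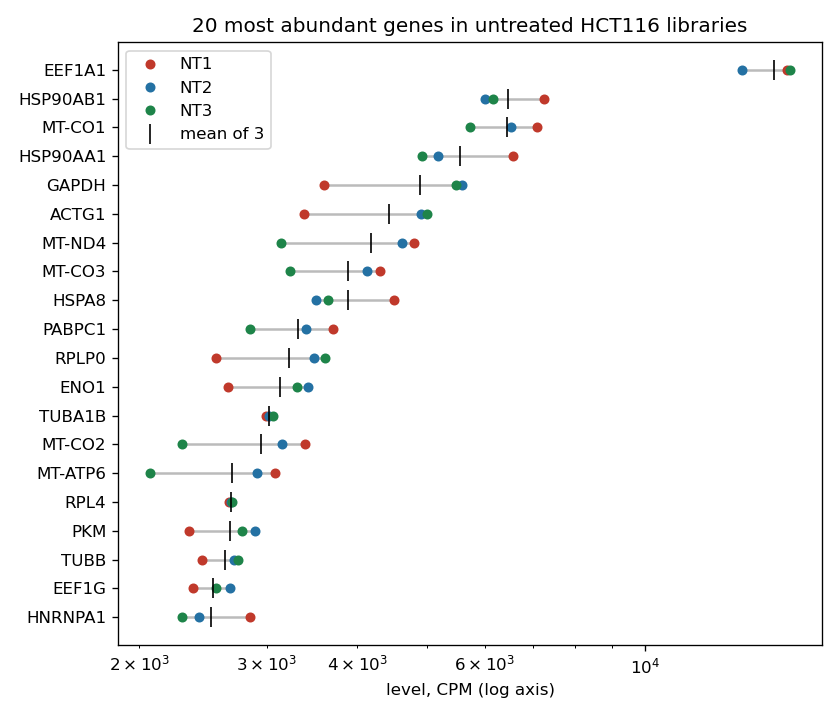
Level in CPM (log axis) of the 20 genes with the highest mean, with a point for each library and a bar for the mean. EEF1A1 lies between 13592 and 15842 CPM, above every other gene. The NT1 point is the lowest for GAPDH, ACTG1, RPLP0, ENO1, TUBA1B, RPL4, PKM, TUBB and EEF1G.

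Because long transcripts give more fragments, the order of genes was also read per kilobase of exon (CPM per kb). Mitochondrial mRNAs then led, with MT-CO3 at 4957 CPM per kb ± 732, MT-CO2 at 4301 ± 842, MT-CO1 at 4177 ± 443, MT-ATP6 at 3944 ± 794 and MT-ND4 at 3035 ± 658. Among the first 4 each differed from the next by less than the larger SD. MT-CO3 was nevertheless above MT-CO2 in every library, whereas the order of MT-CO2, MT-CO1 and MT-ATP6 changed between libraries. Behind these mitochondrial mRNAs came FTL (2355 ± 471), the ferritin light chain that stores iron, and TMSB10 (2258 ± 230), an actin-binding thymosin. HSP90AB1 (2170 ± 224) and GAPDH (2037 ± 465) followed, and from FTL to GAPDH neighbours in this order also differed by less than the larger SD. EEF1A1 came next with 1496 CPM per kb ± 126 over all annotated exons and 2933 over its longest transcript, so its place depends on the length used. The 13 mitochondrial mRNAs took 3.09%, 2.91% and 2.22% of the counts, lowest in NT3. The 84 cytosolic ribosomal protein genes took 6.67%, 7.37% and 7.49%, lowest in NT1.

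The promoters of these abundant genes differed from those of silent genes. A promoter sequence was available for 15262 of the 19781 protein-coding genes. CpG content was expressed as the observed number over the number that the C and G content of the window gives, and 66.5% of all promoters had a ratio over 0.6. The share was 28.5% for silent genes (1119 of 3920), 47.7% for genes between, and 76.3%, 86.1%, 88.7% and 91.7% in 4 equal groups of detected genes from low to high level. The median ratio rose from 0.316 in silent genes to 0.890 in the highest group. CHFR, with a ratio of 1.04, belonged to the 1119 silent genes with a CpG-rich promoter, and FABP1, with 0.374, to the others.

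**Figure D3:**
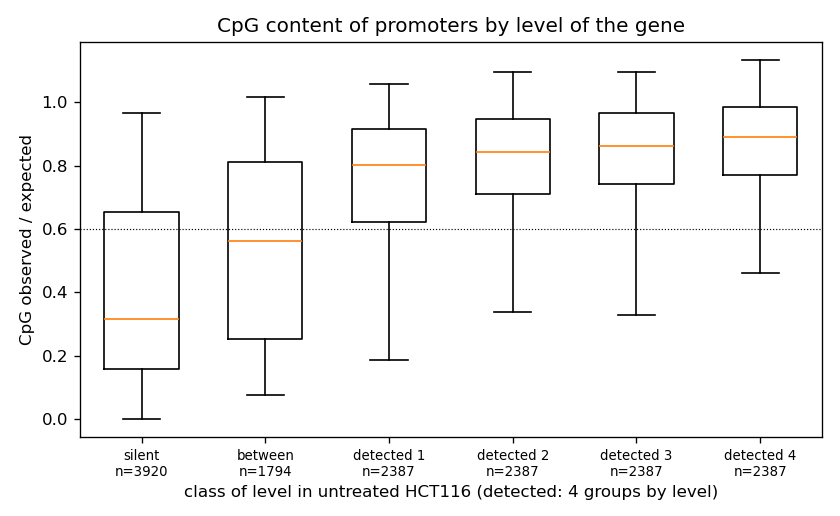
Observed over expected CpG of promoters (y axis) in classes of level (x axis), with silent genes, genes between and 4 equal groups of detected genes from low to high level. Boxes span the quartiles with the median as a line, whiskers run from the 5th to the 95th percentile, and the dotted line marks 0.6, and the medians rise from 0.316 to 0.890.

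The letters TATAAA, searched on the strand of the gene so that the motif lies between 40 and 16 bases before the start, occurred in 3.69% of all promoters. They occurred in 8.90% of promoters of silent genes (349 of 3920), FABP1 among them with the motif starting at -31. They occurred in 0.754% to 1.93% of the 4 groups of detected genes, and RPLP0 was one of these, with the motif at -27. Anywhere in the window and on both strands, TATAAA occurred in 9.61% of all promoters, 19.9% of silent ones and 4.44% to 5.74% of detected ones. A start at C followed by 4 pyrimidines, the letters that open the mRNAs of the translation machinery, was found in 4.67% of all promoters, 2.93% of silent ones and 9.05% of the highest group. Among ribosomal protein genes it was found in 43 of the 67 with a promoter sequence (64.2%). The window of EEF1A1 opens its transcript with CTTTT and that of RPLP0 with CCTTC. A match is a description of these windows, and a gene can have starts other than the first one listed.

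The markers of the label were checked first. EPCAM, the epithelial cell adhesion molecule, had 310, 275 and 256 CPM, and CDH1, which encodes E-cadherin, had 122, 114 and 106 CPM. KRT19, a keratin of simple epithelia, had 180 CPM in NT1 against 444 and 410 in NT2 and NT3. All 3 genes were detected in every library, EPCAM and CDH1 within a narrow range and KRT19 with NT1 far below the other libraries. The transcript of KRT19 has a GC content of 61.8%, and without NT1 its mean was 427 CPM. Per kilobase of exon KRT19 had 77.1, 190 and 175 CPM per kb and EPCAM 128, 113 and 105, so KRT19 was the lower in NT1 and the higher in NT2 and NT3. Both lay above CDH1 (18.7 CPM per kb ± 1.35) in every library.

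Of 30 epithelial genes 27 were detected, 3 lay between and 0 were silent, beside 59.3% of all protein-coding genes detected and 27.6% silent. KRT8 and KRT18, the keratin pair of simple epithelia, had 775, 1356 and 1182 CPM and 849 CPM ± 91.0, and the desmosome protein gene DSP had 530 ± 34.4. The regulators of epithelial splicing ESRP1 (237 ± 28.9) and ESRP2 (34.9 ± 5.37), the transcription factors GRHL2 (41.5 ± 2.55) and EHF (104 ± 24.0) and the tight junction genes F11R (166 ± 7.45) and OCLN (44.6 ± 3.58) were all detected. The claudin gene CLDN4, with 53.2, 90.01 and 98.2 CPM, CLDN7, with 51.6, 78.4 and 85.3, and the transcription factor gene ELF3, with 26.5, 45.7 and 41.7, were detected with NT1 lowest. The genes between included the claudin CLDN3, with 0.201 CPM in NT1 and 1.91 and 1.83 in the others, and OVOL2, a repressor of mesenchymal genes, with 0.705 to 1.03 CPM. NT1 was the lowest library for 17 of the 30 genes, and without it 29 were detected.

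Of 26 mesenchymal genes 8 were detected, 6 lay between and 12 were silent, beside 59.3% of all protein-coding genes detected and 27.6% silent. S100A4, a calcium-binding protein of motile cells, had 114, 111 and 218 CPM, with NT3 standing above the other libraries, and FN1, fibronectin, had 62.2, 70.5 and 69.6 CPM. The repressors of E-cadherin SNAI1 and ZEB1 had 5.88 to 13.6 CPM and 5.47 to 7.58 CPM. VIM, the intermediate filament of mesenchymal cells, had only 4.99, 5.17 and 7.79 CPM, SPARC and COL1A1, of the extracellular matrix, lay between 3.07 and 8.02 CPM, and ACTA2, the smooth muscle actin, between 5.50 and 6.30 CPM. CDH2 (N-cadherin), TWIST2, FAP, PDGFRA, DCN, LUM, THY1 and POSTN, which mark fibroblasts or mesenchymal carcinoma cells, were silent.

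Markers of cell types from outside the epithelium were mostly absent. Of 44 markers of blood, endothelial, liver, nerve, muscle, skin and other cells 4 were detected, 14 lay between and 26 were silent. Over all protein-coding genes 59.3% were detected and 27.6% silent. The leucocyte gene PTPRC, the globin gene HBB, the T cell genes CD3D and CD3E and the muscle myosins MYH1, MYH6 and MYH7 had at most 1 count in any library. Of the 4 detected, SYT1, a calcium sensor of synaptic vesicles, had 148, 133 and 150 CPM, and MBP, named for myelin, had 52.2, 54.4 and 56.0 CPM. CD68, a lysosomal protein of macrophages, had 4.36 to 5.85 CPM and PMEL, a melanosome protein, 3.38 to 5.89 CPM. SYT1 and MBP were therefore measured evenly, while the other markers of nerve and glial cells, SNAP25, RBFOX3, GFAP and OLIG2, did not reach 1 CPM in all libraries.

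**Figure D4:**
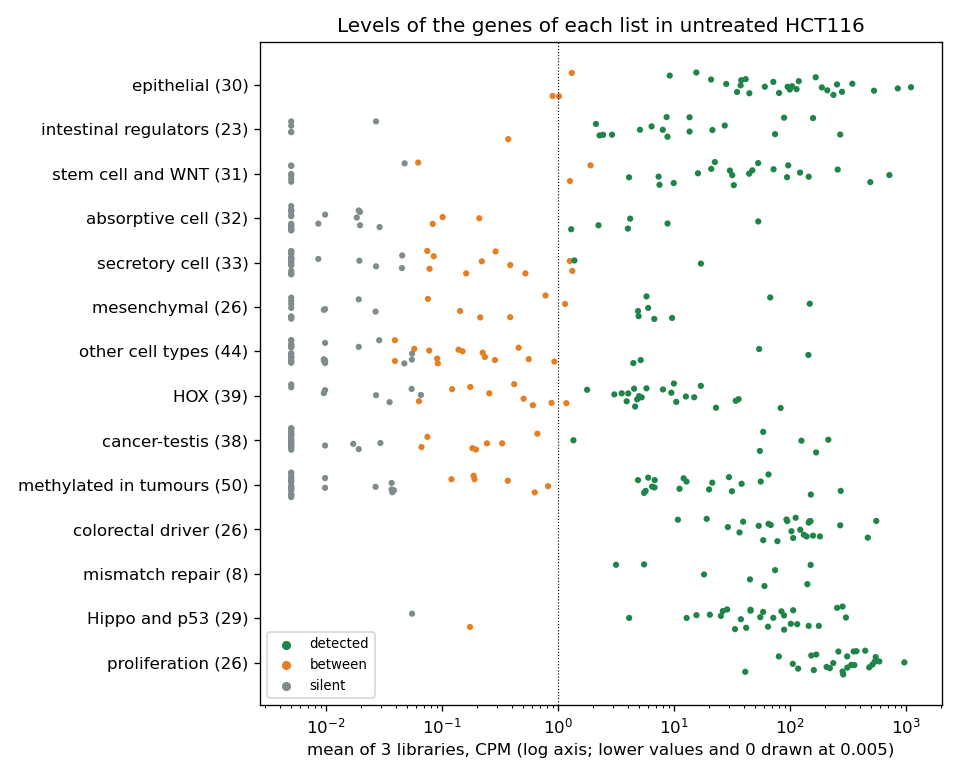
Mean level over 3 libraries in CPM (log axis, with 0 and lower values drawn at 0.005) of each gene of 14 lists, 1 point per gene, with the number of genes in brackets and green, orange and grey for detected, between and silent. The epithelial, driver, mismatch repair and proliferation lists hold no silent gene, whereas 23 of 32 absorptive and 21 of 33 secretory genes are silent.

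Transcription factors that specify the intestine were present in part. Of 23, 17 were detected, 1 lay between and 5 were silent, beside 59.3% of all protein-coding genes detected and 27.6% silent. CDX2, a homeodomain factor of intestinal identity, had 12.4, 14.1 and 14.2 CPM, and HNF4A, a nuclear receptor of enterocytes, had 8.34, 9.32 and 8.69 CPM, so both were low but even between libraries. SOX9 (158 CPM ± 7.93), a factor of crypt progenitors, TCF7L2 (271 ± 12.8), the nuclear partner of β-catenin, and KLF5 (74.3 ± 11), a factor of proliferating crypt cells, were higher. Per kilobase of exon TCF7L2 (40.2 CPM per kb ± 1.90) and SOX9 (40.2 ± 2.02) did not differ, and CDX2 stood at 3.87 ± 0.285. GATA6 had 8.63 CPM ± 0.470 while its relatives GATA4 and GATA5, and also CDX1, had 0 counts in every library. PDX1, a factor of duodenum and pancreas, had 2.92 CPM ± 0.601.

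Genes of the WNT pathway and of crypt stem cells were detected in part. Of 31 genes 21 (67.7%) were detected, 3 lay between and 7 were silent, beside 59.3% of all protein-coding genes detected and 27.6% silent. AXIN2, a feedback inhibitor and common readout of β-catenin activity, had 41.8, 48.3 and 43.0 CPM. The feedback genes RNF43 (145 ± 18.2 CPM), ZNRF3 (30.3 ± 2.48) and NKD1 (32.8 ± 2.23) and the transcription factor TCF7 (53.1 ± 6.17) were detected. The targets CD44, CCND1 and MYC, which encode a hyaluronan receptor, cyclin D1 and a growth regulator, had 719 ± 53.2, 492 ± 31.2 and 258 ± 37.3 CPM. LGR5, the receptor that marks crypt stem cells, had 1, 3 and 1 raw counts, and the stem cell markers ASCL2, OLFM4 and SMOC2 had 0 counts in all libraries, as had the WNT genes LEF1 and APCDD1 and the reserve stem cell marker HOPX. Other markers used for stem or progenitor cells were detected, with BMI1 at 122 ± 20.8 CPM, EPHB2 at 47.3 ± 11.9, PROM1 at 31.8 ± 3.27, MSI1 at 22.5 ± 6.42 and LRIG1 at 9.94 ± 0.872. The WNT targets NKD2 and SP5 lay between, at 0.831 to 3.06 and 0.889 to 1.65 CPM. LGR4, the relative of LGR5 that binds the same R-spondin ligands, had 18.9, 15.2 and 14.2 CPM.

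Markers of differentiated intestinal cells were silent more often than not. Of 32 absorptive genes 6 were detected, 3 lay between and 23 were silent, 16 with 0 counts in every library, beside 27.6% of all protein-coding genes silent. The detected ones were the carbonic anhydrase gene CA2 with 54.7, 48.1 and 56.8 CPM, the peptidase gene DPP4 (8.79 ± 1.26), the peptide transporter gene SLC15A1 (4.18 ± 0.420), the bile acid binding protein gene FABP6 (4.0 ± 0.433), the microvillus gene VIL1 (2.23 ± 0.545) and the keratin KRT20 (1.30 ± 0.255). FABP1, FABP2, SI, ALPI, SLC26A3, CA1, CA4, GUCA2A and GUCA2B, which serve digestion, ion transport and fluid balance at the brush border, had 0 counts. CDH17, the intestinal cadherin, had 2, 1 and 0.

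Of 33 secretory genes 2 were detected, 10 lay between and 21 were silent, beside 59.3% of all protein-coding genes detected and 27.6% silent. The detected ones were SCG2, a granin of neuroendocrine cells, with 15.3, 13.6 and 22.1 CPM, and DCLK1, a kinase of tuft cells, with 1.35, 1.23 and 1.57 CPM. MUC2, the main mucin of goblet cells, had 0, 2 and 3 counts, and TFF1, TFF3, ZG16, CLCA1 and SPINK4, also of goblet cells, and the Paneth cell defensins DEFA5 and DEFA6 had 0. ATOH1, the factor that specifies the secretory lineage, had 0.0514 to 0.115 CPM, and the enteroendocrine genes NEUROD1, NEUROG3, INSM1 and GCG had 0 counts. Genes of more than 1 secretory type were thus at the floor together.

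HOX genes, which specify position along the body axis, differed in level between their 4 clusters. Of 39 genes 22 were detected (56.4%), 9 lay between and 8 were silent, beside 59.3% of all protein-coding genes detected. The HOXA cluster (chromosome 7) had 9 of 11 genes detected and a summed level of 168, 174 and 174 CPM. HOXB (chromosome 17) had 8 of 10 detected and 105, 123 and 116 CPM in sum, and HOXC (chromosome 12) 4 of 9 and 16.7, 19.1 and 16.1 CPM. HOXD (chromosome 2) had 1 of 9 detected, HOXD8, and a sum of 5.59, 4.73 and 4.65 CPM, so the sums stood in the same order in every library. HOXA9 had 85.9, 78.7 and 84.2 CPM, HOXB9 36.0 ± 2.64, HOXA10 34.0 ± 3.21 and HOXB7 23.0 ± 1.87 CPM. Per kilobase of exon HOXA9 (27.3 CPM per kb ± 1.23) was followed by HOXB7 (15.1 ± 1.23) and HOXB9 (13.9 ± 1.02), which differed from each other by about their SD. Among the genes with the highest paralogue number, HOXA13 (10.4 ± 0.980), HOXB13 (12.6 ± 1.78) and HOXC13 (4.03 ± 0.414) were detected and HOXD13 had 1, 0 and 0 counts. Neighbouring HOX genes overlap, and their reads could be shared between them.

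**Figure D5:**
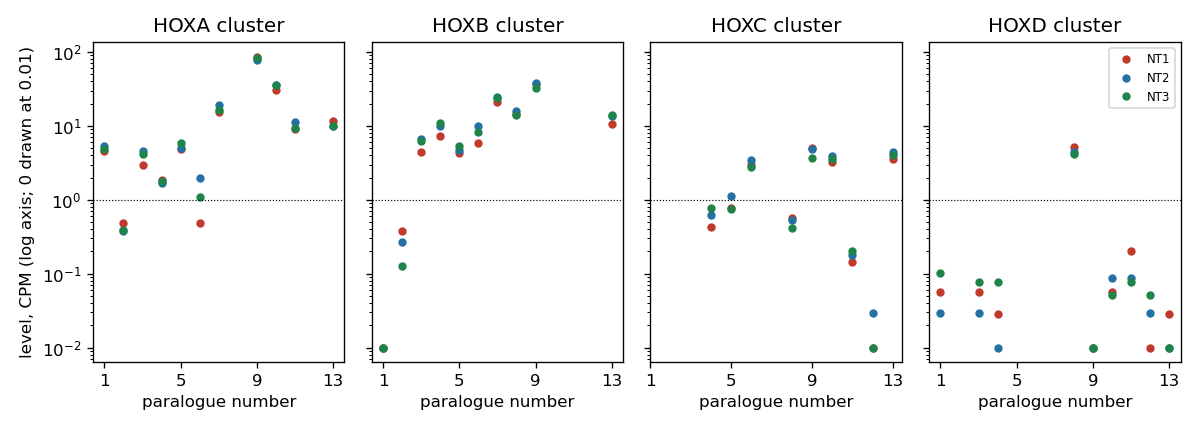
Level in CPM (log axis, 0 drawn at 0.01) of each HOX gene by paralogue number (x axis) in the 4 clusters, 1 point per library, with 1 CPM as a dotted line. HOXA and HOXB have 9 and 8 genes detected, while in HOXD only HOXD8 lies above 1 CPM.

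A small set of genes normally kept to the germ line or embryo was transcribed. Of 38 such genes 6 were detected, 7 lay between and 25 were silent, 21 of them with 0 counts in every library. Among all protein-coding genes 59.3% were detected and 27.6% silent. MAGEB2, a MAGE family gene of the X chromosome, had 211, 203 and 227 CPM, and MAGEA3 had 114, 126 and 136 CPM. MAGEA2 had 50.2, 50.4 and 64.2 CPM and PRAME, a melanoma-associated antigen, 55.8, 61.2 and 59.2 CPM. IGF2BP3, an oncofetal RNA-binding protein, had 189, 174 and 140 CPM, whereas its relative IGF2BP1 had 1.23 to 1.5 CPM. MAGEA1, MAGEA4, MAGEA10, MAGEC2, CTAG1B, the GAGE, PAGE and XAGE genes listed and the germ cell helicase DDX4 had 0 counts. MAGEA6 had 0.143 to 0.265 CPM. MAGEA3 and MAGEA6 are near-identical in sequence, as are MAGEA2 and MAGEA2B, so how their reads were divided is uncertain.

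Genes known as targets of promoter methylation in colon tumours were read beside all protein-coding genes, of which 59.3% were detected and 27.6% silent. Of the 50 on the list 19 were detected, 6 lay between and 25 were silent. The silent ones included the secreted WNT antagonists SFRP1, SFRP2, SFRP5 and WIF1, each with 0 counts, as well as CHFR, SDC2, TFPI2, TAC1, BMP3, NEUROG1 and IRF8 with 0. Those detected included SEPTIN9, a cytoskeletal GTPase, with 197, 332 and 293 CPM, HLTF, a helicase-like factor, with 166, 139 and 148 CPM, the tumour suppressor APC with 74.2, 61.9 and 59.6 CPM and the WNT antagonist DKK1 with 65.2, 61.0 and 41.5 CPM. CDKN2A, which encodes p16 and ARF, had 18.9, 21.4 and 19.9 CPM, and counts per gene do not separate its transcripts. IGF2 had 26.7, 38.3 and 29.7 CPM under 1 gene identifier and 0 counts under another of the same name. DNA methylation was not measured, so the table does not say which of the silent genes are methylated in these cells.

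All 26 genes of a list of colorectal cancer drivers were detected, beside 59.3% of all protein-coding genes, with means from 10.8 to 554 CPM. CTNNB1 had 585, 500 and 577 CPM, and the receptor tyrosine kinase MET 509, 434 and 460 CPM. The apoptosis gene BAX ranged from 24.3 CPM in NT1 to 45.8 in NT3. All 8 mismatch repair genes were detected. MSH6, a subunit that recognises single mismatches, had 174, 141 and 137 CPM, and MSH3, its counterpart for larger loops, had 3.58, 3.35 and 2.54 CPM. Per kilobase of exon MSH3 (0.593 CPM per kb ± 0.102) lay below MSH6 (8.49 ± 1.13) and the endonuclease subunit gene PMS2 (5.35 ± 0.169) in every library.

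The p53 and Hippo genes, which the study examined under treatment, were mostly detected in untreated cells. Of 29 genes 27 were detected, 1 lay between and 1 was silent, beside 59.3% of all protein-coding genes detected and 27.6% silent. In the p53 family TP73 had 17.4, 31.4 and 30.1 CPM with NT1 lowest, and TP63 had 0, 3 and 3 raw counts. The p53 targets CDKN1A, an inhibitor of cyclin-dependent kinases, and MDM2, the ligase that degrades p53, had 145 ± 25.8 and 177 ± 19.8 CPM. Of the Hippo co-activators YAP1 had 254, 229 and 281 CPM and WWTR1, which encodes TAZ, 82.7, 81.2 and 103 CPM. The order per kilobase of exon of the TEAD factors that bind them was TEAD1 (28.3 CPM per kb ± 1.56), TEAD2 (12.7 ± 0.745), TEAD3 (11 ± 2.45) and TEAD4 (8.94 ± 0.838), of which TEAD2 and TEAD3, and TEAD3 and TEAD4, did not differ beyond their spread. Among targets of YAP and TAZ, CCN1, CCN2 and ANKRD1 had 12.8 ± 0.840, 4.10 ± 0.497 and 0.174 ± 0.153 CPM. AXL, which the study also names as such a target, was detected, so these levels do not stand for all targets.

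NT2 and NT3 were closer to each other than either was to NT1. Among 9327 genes with a mean of at least 10 CPM the median coefficient of variation (CV, SD over mean) was 10.9%, with 4036 genes under 10% and 853 (9.15%) over 30%. Between NT2 and NT3 63 genes (0.675%) differed by over 1.5-fold, whereas between NT1 and NT2 1500 (16.1%) did and between NT1 and NT3 1347 (14.4%). With NT1 left out the median CV was 5.54%, against 10.9% with NT2 left out and 12.3% with NT3 left out. The biological coefficient of variation that edgeR estimated was 0.182, and 0.0873 without NT1. The CV that counting error alone would give was 2.86% at 10 to 100 CPM and 1.28% at 100 to 1000 CPM, where the median CVs were 11.2% and 10.1%. In the 5 groups of GC content, from low to high, the median CV was 10.7%, 9.65%, 7.81%, 10.2% and 27.2%.

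The genes that varied most were GC-rich and low in NT1. NT1 was the lowest library for 96 of the 100 genes with the highest CV, whose median GC content was 64.2% against 46.9% for all 9327. HSPB1, a small heat shock protein, had 35.7, 163 and 101 CPM, MIF, a cytokine, 12.1, 56.4 and 37.8 CPM, and RPS28, a ribosomal protein gene, 40.7, 180 and 149 CPM. NDUFB7, of respiratory complex I, NAPRT, of NAD synthesis, LAMA5, a laminin chain, and RPUSD1, of pseudouridine synthesis, had CVs of 62.9%, 62.9%, 60.3% and 59.2%, each with NT1 lowest. The highest CV, 102%, belonged to BLOC1S5-TXNDC5, with 26.2, 11.6 and 0.283 CPM, a read-through of neighbouring genes whose reads cannot be told apart from theirs. The other 2 of the 10 genes with the highest CV are not reported here.

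The most evenly measured genes with at least 100 CPM had CVs of 0.354% to 1.03%. They were MTMR4, a lipid phosphatase, RPL4, NEO1, a netrin receptor, the splicing factor SF3A1, PDXDC1, the initiation factor EIF3B, TTC3, the replication helicase subunit MCM4, APLP2, a relative of the amyloid precursor protein, and SAP18, a corepressor subunit. MTMR4 had 134.3, 134.4 and 133.5 CPM and MCM4 517, 509 and 514 CPM. Their transcripts had a GC content of 40.4% to 56.0%, below the median of the 100 most variable genes. Such small CVs were picked from 2236 genes as the smallest, so they are a description of these libraries only.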

How the data were processed

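RNA was extracted from HCT116 cells with a QIAGEN kit, treated with DNase and made into libraries with the Illumina TruSeq stranded mRNA kit. Reads were mapped to GRCh38 with STAR (2.7.5b), and the submitters' processing notes also list Trimmomatic (0.32), RSEM (1.3.3) and DESeq2 (2.13). The counting program, gene annotation and strand setting are not given in the sources used here, so counts of overlapping, antisense, read-through and near-identical genes are uncertain. The authors deposited a whole-number raw count per gene and library, which may be a rounded estimate, and a normalized signal scaled by factors that differ between genes, which was used only as an alternative.

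Raw counts were scaled to CPM of the library total, with no test, since 1 group was described. Intervals and floors cover counting error only. Gene types, exon lengths and the GC content of the longest transcript came from GENCODE 44, in which 27703 identifiers were found and 239 were not. Dispersion was estimated with edgeR 4.0.16 (R 4.3.3) on genes of at least 10 CPM, and the step was tested on simulated data. Chi-square per gene between libraries was 16.8 to 64.5, so none was a duplicate of another. Promoters were those of RefSeq (GRCh38.p14), matched by symbol.

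The genes named were the 20 highest by CPM and 10 highest per kb, the 10 highest and 10 lowest CVs, and from each of 19 lists the highest, the defining and, where most are silent, the detected members. The lists hold epithelial, intestinal regulator, stem and WNT, absorptive, secretory, mesenchymal, other cell type, HOX, cancer-testis, methylated, driver, mismatch repair, Hippo and p53, glycolysis, translation factor, cytoskeleton, proliferation, reference and mitochondrial genes. Some genes that this rule selects are not reported here. Members and lists were chosen with earlier results of these data known. Alternatives were other scalings (TMM, DESeq2 size factors with version 1.42.0, the authors' normalized signal), other thresholds and lengths, removal of GC and length trends, and each library left out in turn.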

Additional observations from a re-analysis of the deposited data

How the results depend on the processing

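Of 179 alternative values for 36 results, 158 moved by less than the spread between libraries or, for counts of genes, by at most 1.5 times, 20 moved by more and 1 changed sign. The share of the 10 most abundant genes was 5.45% without mitochondrial genes and 12.8% per kb, the number of genes holding 50% was 877 and 388 under the same settings, and per kb mitochondrial mRNAs took 12.1% and ribosomal protein genes 10.3%. Detected secretory genes numbered 4 at 0.5 CPM and 1 at 2 CPM. The median CV was 12.1% for genes from 1 CPM, 6.76% with GC and length trends removed and 5.54% to 12.3% with a library left out, lowest without NT1. The edgeR biological coefficient of variation was 0.204 from 1 CPM, 0.145 from 100 CPM and 0.0873 to 0.232 with a library left out, lowest without NT1. Removing the trends turned the Spearman correlation of the NT1 ratio with GC content to 0.029, which follows from its construction. With lengths of the longest transcript EPCAM had 181, CDH1 23.7 and KRT19 248 CPM per kb, above the values over all exons. Within a library, levels under 0.0771 CPM rest on 3 counts or fewer and could not be told from 0. A mean under this level can include a library with more counts, as for CHGB with 1, 4 and 3 counts. No paired analysis was possible because 1 group was described and no test was run.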

Other observations

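All 26 proliferation genes were detected, with means from 41.1 to 968 CPM, beside 59.3% of all protein-coding genes detected. A detected protein-coding gene had a median of 32.9 CPM. MKI67, the nuclear marker of cycling cells, had 1039, 1032 and 833 CPM, RRM2, a subunit of ribonucleotide reductase, 623, 479 and 510 CPM, and CCNB1, the mitotic cyclin B1, 331, 289 and 315 CPM. MCM5, a subunit of the replication helicase, was the most uneven of the list, with 105 CPM in NT1 against 203 and 196 in NT2 and NT3, whereas MCM4 was among the most even genes measured.

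Of 26 glycolytic genes 20 were detected, 1 lay between and 5 were silent, beside 59.3% of all protein-coding genes detected and 27.6% silent. The genes not detected encode tissue-restricted isoforms, among them PKLR of liver and red cells, PGAM2 of muscle, HK3 of blood cells and LDHC and PGK2 of testis, of which PKLR, PGAM2, HK3 and PGK2 had 0 counts. Other restricted isoforms were detected, with ENO3 of muscle at 1.95 to 3.00 CPM and ENO2 and ALDOC of nerve cells at 76.8 ± 7.06 and 43.2 ± 9.05 CPM. LDHA and LDHB, the lactate dehydrogenase subunits, had 1518 ± 233 and 1379 ± 171 CPM, the glucose transporters SLC2A1 and SLC2A3 259 ± 58.1 and 9.67 ± 1.89 CPM. PFKL, a phosphofructokinase with a transcript GC content of 64.1%, had 33 CPM in NT1 against 94.3 and 85.6.

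Beside 59.3% of all protein-coding genes, all 18 translation factors were detected, with a median of 1429 CPM, and 34 of 36 cytoskeletal genes were. The exceptions were the β-tubulin TUBB2B, with 0.917 to 1.77 CPM, and the enteric smooth muscle actin ACTG2, with 0 counts. TMSB10 and its relative TMSB4X had 1041 ± 106 and 142 ± 16.5 CPM.

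All 24 listed genes commonly used as references in quantitative PCR were detected, beside 59.3% of all protein-coding genes. Among these 24 the CV over these libraries was 3.34% for ALAS1 and 3.54% for PGK1, which were among the lowest. It was 19.9% for ACTB and 22.8% for GAPDH, which were the highest. GAPDH and ACTB transcripts have a GC content of 57.6% and 56.5%, and NT1 was the lowest library for both. The part of GC content in their spread was not tested.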
